A study of Mus musculus with 36 samples.

Results

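The genes described here are 4 chemokine genes of the CXC family, Cxcl9, Cxcl10, Cxcl11 and Cxcl16, chosen by name out of 24421 genes counted in each library. Their rows were read in all 36 libraries of a bulk RNA sequencing series of cells isolated from the livers of C57BL/6 mice. Hepatic stellate cells (HSC), which store vitamin A next to the blood sinusoids, liver sinusoidal endothelial cells (LSEC), which form the walls of those sinusoids, and hepatocytes were each profiled at 12 h and at 36 h after diphtheria toxin (DT) and in a WT group. By the series' design the WT mice received PBS, and DT was used to deplete the resident macrophages of the liver (Kupffer cells), so each comparison asks how a neighbouring cell type differs after that loss. Each of the 9 groups held 4 libraries. C57BL/6 is the strain on all labels, a genotype is on none, and no toxin-treated group with intact Kupffer cells was analysed here, so effects of toxin, genotype and cell loss cannot be told apart. Whether a library stands for a single mouse is not stated either, and the p-values therefore measure the spread between libraries, which may be partly technical.

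CXCL9, CXCL10 and CXCL11 are secreted ligands of CXCR3, a receptor on activated T cells and NK cells. Their genes lie next to each other and are known as interferon-gamma targets, with Cxcl10 also responding to type I interferon and to NF-kB. CXCL16 is the ligand of CXCR6, which NKT cells and resident lymphocytes of the liver sinusoids carry. Unlike the CXCR3 ligands it is made as a membrane protein with a chemokine head on a stalk, and the proteases ADAM10 and ADAM17 can release that head.

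In the GENCODE M21 annotation of GRCm38 (mm10) the CXCR3 ligand genes lie on the minus strand of chromosome 5, Cxcl9 at chr5:92321347-92328079, Cxcl10 at chr5:92346638-92348889 and Cxcl11 at chr5:92359544-92365485. Cxcl16 lies on the minus strand of chromosome 11, at chr11:70453983-70459984. Cxcl9, Cxcl10 and Cxcl16 are annotated as protein coding, whereas Cxcl11 is a polymorphic pseudogene in GENCODE and a transcribed pseudogene in RefSeq, so its counts are RNA of an annotated pseudogene. RefSeq promoter windows on GRCm38.p6 were at hand for 2 of the 4 genes, Cxcl9 and Cxcl10, and the 250 bases before each start are shown. Capitals mark matches to the motifs searched on both strands.
Cxcl9, chr5:92328080-92328329, minus strand: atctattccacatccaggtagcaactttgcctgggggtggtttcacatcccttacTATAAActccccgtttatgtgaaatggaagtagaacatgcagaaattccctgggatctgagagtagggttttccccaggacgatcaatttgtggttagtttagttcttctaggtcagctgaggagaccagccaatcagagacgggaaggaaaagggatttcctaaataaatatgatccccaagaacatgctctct
Cxcl10, chr5:92348890-92349139, minus strand: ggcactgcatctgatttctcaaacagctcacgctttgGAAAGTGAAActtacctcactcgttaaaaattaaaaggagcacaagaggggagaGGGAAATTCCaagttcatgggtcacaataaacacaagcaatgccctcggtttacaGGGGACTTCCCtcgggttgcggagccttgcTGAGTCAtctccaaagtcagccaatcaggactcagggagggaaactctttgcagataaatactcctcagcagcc
The Cxcl10 window holds the interferon-stimulated response element (GAAA, any 2 bases, GAAA) as GAAAGTGAAA, with its first base at -213 from the start, a motif found in 3.44% of 32851 promoter windows. It also holds the strict kB motif (GGGA, any 2 bases, TTCC) at -159, found in 1.47% of windows. The looser kB consensus, which was added after the letters had been seen and which also covers the strict match, occurs at -104 and, overlapping it, at -103, and 8.46% of windows hold it. TGANTCA, the AP-1 motif, stands at -74 and is found in 7.81% of windows. The Cxcl9 window, including its 50 bases after the start, holds TATAAA at -195, found in 13.6% of windows, and TGANTCA at 32. Neither window holds TTCNNNGAA, the gamma-activated site, which 8.3% of windows hold, and the Cxcl9 window holds no match to the response element or to either kB motif. These matches describe letters in short windows and say nothing of binding. Only the motifs named here were searched, so a window without a match may still hold an interferon-responsive element or a kB site of other letters.

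**Figure D1:**
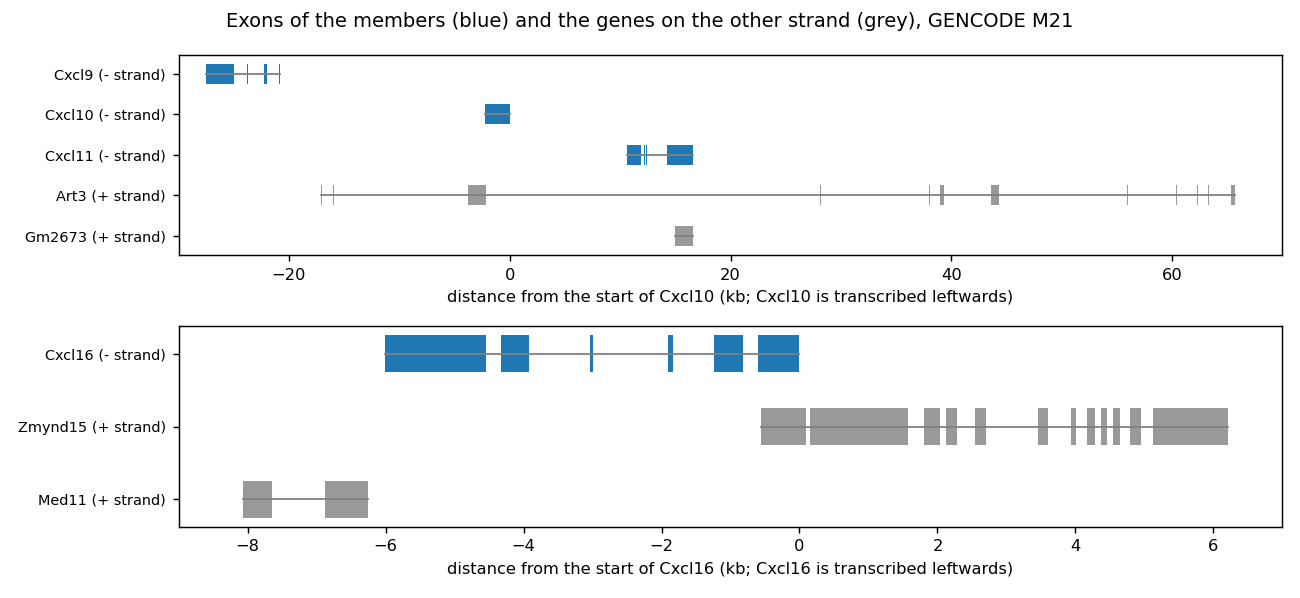
Exon maps of the 2 loci. The horizontal axis is the distance in kb from the start of Cxcl10 (upper) or Cxcl16 (lower), boxes are merged exons, and lines are gene bodies. Cxcl10 and Cxcl11 lie inside the body of Art3 on the other strand, Gm2673 overlaps an exon of Cxcl11, and the first exons of Cxcl16 and Zmynd15 overlap.

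Some reads of these genes could belong to genes on the opposite strand, since the strand setting of the counting is not given in the sources used here. Reads marked as ambiguous, 0.887 to 1.51% of the total, were kept out of the gene counts. Whether reads of the shared stretches are among them is not known. Cxcl10 shares 133 exon bases with Art3, an ADP-ribosyltransferase gene, which is 5.91% of its exon length. Cxcl16 shares 552 exon bases with Zmynd15, or 18.3% of its exon length, and Cxcl11 shares 41.7% of its exon length with Gm2673, which is not counted in the files used here. Art3 itself went the other way from Cxcl10 at 12 h, at 113 ± 13.1 CPM in 12 h HSC and 208 ± 5.8 CPM in WT HSC (SD, n = 4). Its log2 fold change there was -0.86 ± 0.11 (SE) with an adjusted p of 0.000137, and in LSEC at 12 h it was -0.62 ± 0.17 with an adjusted p of 0.0212 (edgeR). For Zmynd15 the level was 51.2 ± 13.6 CPM in 12 h HSC and 16.0 ± 1.97 CPM in WT HSC, a log2 fold change of 1.70 ± 0.18 with an adjusted p of 3.92e-05. In LSEC it stood at 111 ± 28.8 CPM at 12 h and 126 ± 11.2 CPM in WT (adjusted p 0.497). Reads in the stretch shared by Cxcl16 and Zmynd15 cannot be told apart, nor can those shared by Cxcl11 and Gm2673.

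Libraries held 25404719 to 31734631 counts in genes. Levels are CPM, counts scaled to a common library size, on TMM-scaled library sizes over all 36 libraries, and a comparison was called at an adjusted p under 0.05 in edgeR's quasi-likelihood test over all genes that passed the filter on low counts. In bulk samples fewer cells of a type and less RNA per cell cannot be told apart. Each cell type carried its own markers, with 10 stellate genes summing to 36200 to 75200 CPM in HSC libraries and at most 689 CPM in the others, 10 sinusoidal endothelial genes to 19200 to 28700 CPM in LSEC libraries and at most 147 CPM in the others, and 10 hepatocyte genes to 64200 to 113000 CPM in hepatocyte libraries and at most 313 CPM in the others. Clec4f, Timd4 and Cd163 of the 11 Kupffer cell genes had no count in the HSC libraries at 12 h, where a floor of 3 counts over the group is 0.0236 CPM. Timd4 had none in the LSEC libraries at 12 h, and 9 of the 11 had none in the hepatocyte libraries at 12 h. Summed, 11 counted genes of T, NK and NKT cells reached 0 to 5.37 CPM in any library and 4 B cell genes at most 4.85 CPM. Hepatocyte libraries split in their level of the nuclear RNA Malat1, above 100 CPM in numbers 1 and 2 of the WT and 36 h groups and in number 1 of the 12 h group, and below it in the rest.

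**Figure D2:**
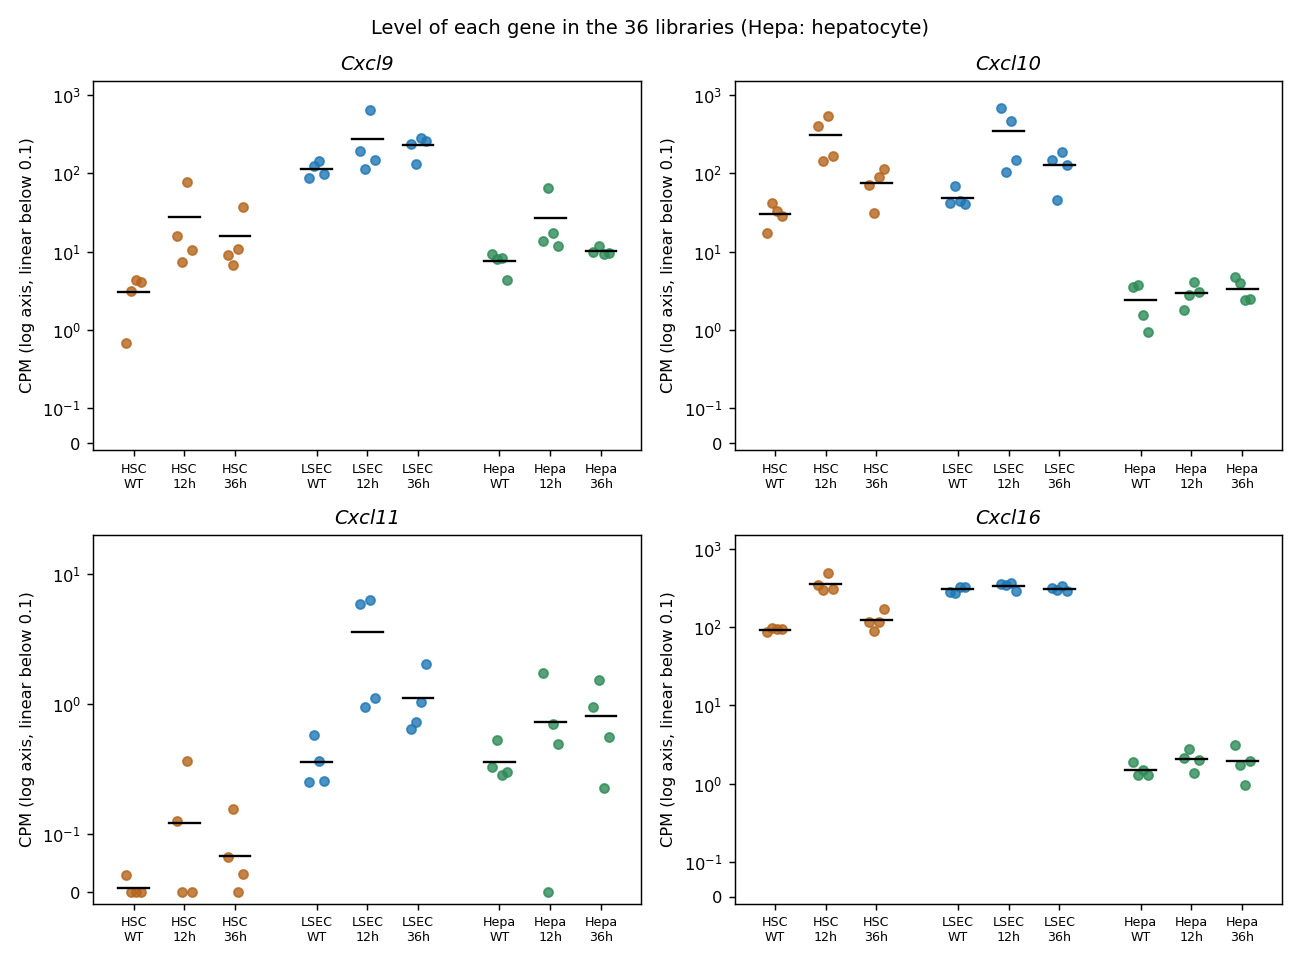
CPM of Cxcl9, Cxcl10, Cxcl11 and Cxcl16 in each library (points) with the group mean (line), on a log axis that is linear below 0.1, for HSC, LSEC and hepatocytes in WT and at 12 h and 36 h. Cxcl10 at 12 h lies between 142 and 534 CPM in HSC and between 103 and 673 CPM in LSEC, above all WT libraries of the same cell type, and Cxcl16 at 12 h lies above all WT libraries in HSC and overlaps WT in LSEC.

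In WT liver the 4 genes had unlike homes. Cxcl16 stood at 92.3 ± 4.49 CPM in HSC, 300 ± 27.4 CPM in LSEC and 1.49 ± 0.267 CPM in hepatocytes (SD, n = 4 each). Cxcl9 was highest in the endothelial libraries, at 3.08 ± 1.68 CPM in HSC, 112 ± 24.4 CPM in LSEC and 7.47 ± 2.14 CPM in hepatocytes. Cxcl10 was shared by both sinusoidal cell types, at 29.9 ± 10.2 CPM in HSC and 48.7 ± 13.1 CPM in LSEC, and stood at 2.42 ± 1.38 CPM in hepatocytes. Cxcl11 was near the limit of detection, with 1 count in all in the HSC libraries, 51 in the LSEC libraries and 29 in the hepatocyte libraries. Per kb of exon, the scale on which genes can be compared, the order in WT HSC was Cxcl16 at 30.5 CPM per kb, Cxcl10 at 13.3, Cxcl9 at 1.02 and Cxcl11 at 0.00193. In WT LSEC Cxcl16 led at 99.4 CPM per kb, ahead of Cxcl9 at 37.1, Cxcl10 at 21.6 and Cxcl11 at 0.0954. The merged exons of Cxcl10 form 1 block of 2252 bases, its whole gene body, so introns may be counted as exon. The CPM per kb of Cxcl10 may thus be too low. Its place below Cxcl16 in HSC and below Cxcl9 in LSEC may depend on that length.

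At 12 h stellate cells held more RNA of all 3 genes that could be tested there, Cxcl9, Cxcl10 and Cxcl16. All 3 were called higher than in WT, where 17% of the 12676 genes tested were called higher and 32% in either direction. Cxcl10, an interferon-induced ligand of CXCR3, had 403, 142, 534 and 164 CPM in the 12 h HSC libraries numbered 1 to 4, against 17, 41.5, 32.5 and 28.5 CPM in the WT libraries. The groups did not overlap, as for 14.7% of genes with every 12 h library above WT, and numbers 1 and 3 were the highest at 12 h. The change was 10.6-fold, a log2 fold change of 3.4 ± 0.48 (SE, edgeR, adjusted p 0.000241).

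Cxcl9 in the same HSC libraries had 15.9, 7.37, 76.2 and 10.4 CPM at 12 h, against 0.674, 3.18, 4.37 and 4.10 CPM in WT. Every 12 h library lay above every WT library, but number 3 stood far above the rest. The log2 fold change was 3.18 ± 0.80 (adjusted p 0.00834), or 9.05-fold, and without HSC 12 h number 3 it was 1.90 (adjusted p 0.0354), or 3.74-fold.

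Cxcl16 also rose in HSC, with 346, 296, 483 and 301 CPM at 12 h, against 85.9, 96.2, 94.3 and 92.6 CPM in WT. The lowest 12 h library was thus well above the highest WT library. Its log2 fold change was 1.97 ± 0.19 (adjusted p 2.59e-05), or 3.92-fold. Cxcl11 did not pass the filter in HSC and was not tested: its counts summed to 15 over the 12 h libraries (4, 0, 11 and 0) and to 1 over the WT libraries.

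Beside these rises in HSC, genes of other cell types stood as follows. Summed Kupffer cell genes reached 118 to 432 CPM in the 12 h HSC libraries and 495 to 764 CPM in WT, nearly all of it Slc40a1, the iron exporter, at 274 and 585 CPM on average. T, NK and NKT cell genes summed to 0.126 to 1.46 CPM at 12 h and 0.223 to 0.566 CPM in WT, with 7 of 11 and 9 of 11 counted. Monocyte and neutrophil genes summed to 940 to 1990 CPM at 12 h and 1270 to 1730 CPM in WT. Almost all of this was Fn1, fibronectin. Of these genes 8 of 9 were counted at 12 h and 5 of 9 in WT. S100a8 was at 0 in both, while Ccr2, Chil3 and S100a9 were at 0 in WT only. Dendritic cell genes summed to 25.5 to 32.1 CPM at 12 h and 26.7 to 30.2 CPM in WT, with Flt3 and Siglech at 0 in both. The part of such cells in the rises was not tested.

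In sinusoidal endothelium at 12 h Cxcl10 and Cxcl11 rose, while Cxcl9 and Cxcl16 did not pass the test. That is 2 of 4 members called higher, where 9.74% of the 12286 genes tested were called higher and 18.2% in either direction. Cxcl10 had 673, 103, 468 and 146 CPM in the 12 h LSEC libraries numbered 1 to 4, against 41.6, 68.3, 44.1 and 40.8 CPM in WT. All 12 h libraries lay above all WT libraries, as for 11.1% of genes, with numbers 1 and 3 again the highest. The log2 fold change was 2.85 ± 0.55 (adjusted p 0.00357), or 7.23-fold.

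Cxcl11 had 5.90, 0.947, 6.34 and 1.11 CPM in the same 12 h LSEC libraries, against 0.252, 0.577, 0.364 and 0.255 CPM in WT. These values rest on 219, 32, 233 and 36 counts at 12 h and 9 to 19 counts per library in WT, and the groups did not overlap. The log2 fold change was 3.32 ± 0.67 (adjusted p 0.00444), or 9.96-fold.

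Cxcl9 had 194, 114, 641 and 147 CPM in LSEC at 12 h, against 87.8, 122, 141 and 96.4 CPM in WT. The groups overlapped, and number 3 held the highest 12 h value, as it did in HSC. The log2 fold change of 1.31 ± 0.45 missed the threshold (adjusted p 0.0568), was 0.46 (adjusted p 0.268) without LSEC 12 h number 3, and passed without LSEC 12 h number 2 (1.56, adjusted p 0.0227) or number 4 (1.51, adjusted p 0.0393). Cxcl16 had 355, 346, 362 and 286 CPM at 12 h, against 281, 272, 324 and 323 CPM in WT, a log2 fold change of 0.18 ± 0.11 (adjusted p 0.251) with overlapping groups.

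In the LSEC libraries monocyte and neutrophil genes summed to 5.07 to 14.9 CPM at 12 h and 2.34 to 4.44 CPM in WT, with 9 of 9 and 8 of 9 counted and Fn1 the largest. T, NK and NKT cell genes summed to 2.02 to 4.17 CPM at 12 h and 0.82 to 4.3 CPM in WT, with all 11 counted in both groups. Dendritic cell genes summed to 124 to 147 CPM at 12 h and 123 to 141 CPM in WT, mostly Zbtb46, at 126 and 129 CPM on average, a factor that endothelial cells also express. Kupffer cell genes summed to 576 to 907 CPM at 12 h and 631 to 780 CPM in WT, mostly Slc40a1 and Clec1b, with Timd4 at 0 at 12 h. Their part in the result was not tested.

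**Figure D3:**
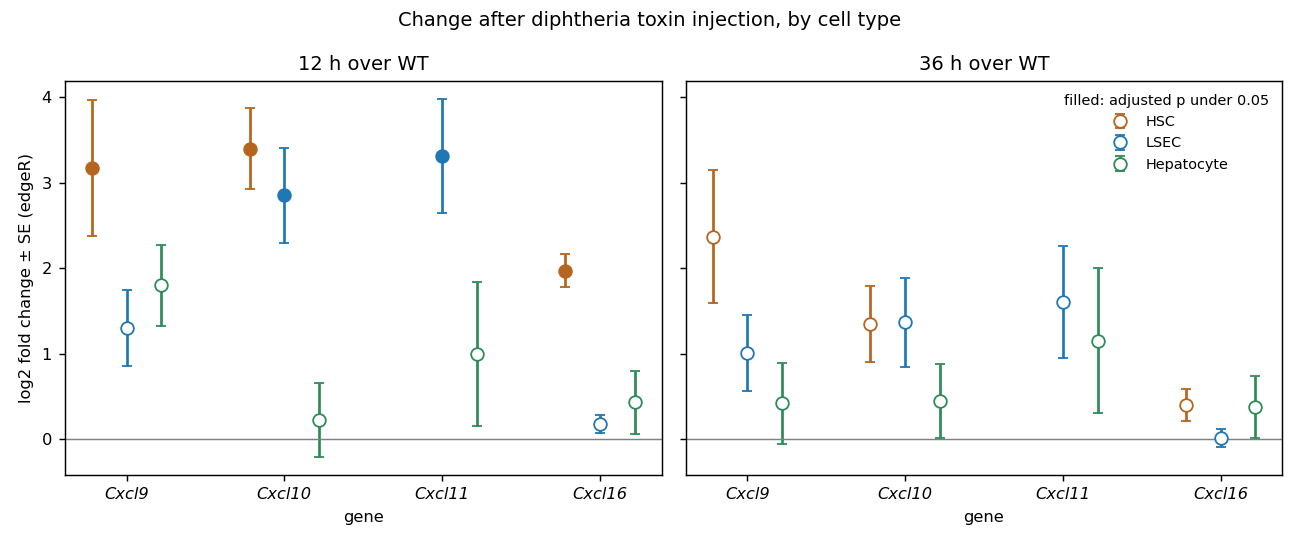
Log2 fold change ± SE (edgeR) of each gene over WT at 12 h (left) and 36 h (right) in HSC, LSEC and hepatocytes; filled points have an adjusted p under 0.05. The filled changes at 12 h are Cxcl9, Cxcl10 and Cxcl16 in HSC and Cxcl10 and Cxcl11 in LSEC, and none is filled at 36 h. Cxcl11 was not tested in HSC.

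By 36 h none of the members was called against WT in any cell type. In HSC 0.142% of the genes tested were called, 18 in all, with 868 at an unadjusted p under 0.05 and 125 called by DESeq2, and 10 with the replicate number as a block. Cxcl9 had 9.16, 6.79, 10.8 and 36.5 CPM in HSC at 36 h, against 0.674, 3.18, 4.37 and 4.10 CPM in WT, so that the groups still did not overlap, as for 3.5% of genes. Its log2 fold change was 2.37 ± 0.78 with an adjusted p of 0.421, and 1.53 without HSC 36 h number 4, the highest of its group. For Cxcl10 the HSC libraries had 69.7, 31.4, 90.4 and 112 CPM at 36 h, against 17, 41.5, 32.5 and 28.5 CPM in WT, a log2 fold change of 1.35 ± 0.45 (adjusted p 0.427). Numbers 1, 3 and 4 of the 36 h group were above all WT libraries, and number 2 lay within their range. Cxcl16 had 114, 89.6, 116 and 167 CPM in HSC at 36 h, against 85.9, 96.2, 94.3 and 92.6 CPM in WT (0.40 ± 0.19, adjusted p 0.73).

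Between 12 h and 36 h Cxcl10 and Cxcl16 fell in HSC, 2 of 3 tested members, where 15% of genes were called lower and 27.9% in either direction. Cxcl10 at 36 h was 4.16-fold lower than at 12 h, with a log2 fold change of -2.06 ± 0.45 (adjusted p 0.00454) and no overlap, as for 12.2% of genes with every 36 h library below 12 h. Cxcl16 at 36 h was 2.97-fold lower, with a log2 fold change of -1.57 ± 0.19 (adjusted p 0.00013), also without overlap. Cxcl9 did not pass, at -0.81 ± 0.72 (adjusted p 0.433), and without HSC 12 h number 3 its estimate was 0.48.

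In LSEC at 36 h the group means of Cxcl10 and Cxcl11 lay between those of 12 h and WT. Cxcl10 had 147, 45.2, 184 and 129 CPM at 36 h, against 41.6, 68.3, 44.1 and 40.8 CPM in WT (log2 fold change 1.37 ± 0.53, adjusted p 0.391). Cxcl11 had 0.648, 0.726, 1.03 and 2.05 CPM at 36 h, against 0.252, 0.577, 0.364 and 0.255 CPM in WT (1.61 ± 0.65, adjusted p 0.415), with no overlap, a pattern that 4.09% of genes tested showed. Cxcl9 had 236, 132, 282 and 255 CPM at 36 h, against 87.8, 122, 141 and 96.4 CPM in WT (1.01 ± 0.44, adjusted p 0.447). Its 36 h mean of 226 CPM stood beside a 12 h mean of 274 CPM, with a log2 difference of -0.30 ± 0.44 (adjusted p 0.671). In edgeR no gene was called in LSEC at 36 h (0% of 12286), against 1288 at an unadjusted p under 0.05 and 107 called by DESeq2. With the replicate number as a block 5 genes were called, and with all 36 libraries in the fit 34. From 12 h to 36 h 10.8% of genes were called lower in LSEC and 21.3% in either direction, but neither Cxcl10 (-1.49 ± 0.53, adjusted p 0.0587) nor Cxcl11 (-1.71 ± 0.61, adjusted p 0.0594) passed. In the fit with the libraries of all cell types Cxcl10 was called (-1.46), and in DESeq2 Cxcl11 was called (-1.72).

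Hepatocyte libraries held little RNA of the 4 genes, and nothing was called in them. Cxcl9 had 13.7, 65.1, 17.2 and 11.6 CPM at 12 h, against 9.18, 7.98, 8.38 and 4.34 CPM in WT, and number 2 stood far above the rest. The groups did not overlap, a pattern that 2.01% of the 11326 genes tested showed. The log2 fold change of 1.80 ± 0.48 had an unadjusted p of 0.00229 and an adjusted p of 0.54 in edgeR, while DESeq2 gave 1.80 with an adjusted p of 0.0268. Without number 2 of the 12 h group it was 0.89 (adjusted p 0.694), and with the Malat1 split as a term it was 1.79 (adjusted p 0.328). In edgeR 0% of genes were called at 12 h, with 453 at an unadjusted p under 0.05 and 49 in DESeq2, and 0% at 36 h, with 563 and 59, or 5 calls with the replicate number as a block. From 12 h to 36 h 0% were called too, with 725 and 24. Cxcl10 was 1.82 to 4.05 CPM at 12 h and 0.948 to 3.70 CPM in WT, and Cxcl16 was 1.35 to 2.76 CPM at 12 h and 1.3 to 1.86 CPM in WT, with overlap in both. Cxcl11 had 0 to 41 counts per library at 12 h and 5 to 11 in WT. At 36 h the ranges were 9.32 to 11.9 CPM for Cxcl9, all above the 4.34 to 9.18 CPM of WT as for 1.71% of genes, 2.39 to 4.68 CPM for Cxcl10, 0.966 to 3.15 CPM for Cxcl16 and 4 to 30 counts for Cxcl11.

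As a share of the LSEC mean, all 4 members stood higher in the hepatocyte libraries than any of 10 endothelial markers did. Hepatocyte libraries held Cxcl9 at 9.82% of the LSEC mean at 12 h and 6.68% in WT, while the 10 endothelial genes stood at 0 to 0.249% of their LSEC mean at 12 h and 0.00835 to 0.19% in WT. Cxcl10 stood at 0.847% of the LSEC mean at 12 h and 4.97% in WT, and Cxcl16 at 0.611% and 0.495%. Cxcl11 stood at 20.5% at 12 h and 99.5% in WT, on few counts. These were 65 and 29 over the hepatocyte libraries and 520 and 51 over the LSEC libraries. Kupffer cell genes summed to 241 to 357 CPM in hepatocytes at 12 h and 241 to 268 CPM in WT, nearly all of it Slc40a1, with 9 of 11 at 0 at 12 h and none at 0 in WT. T, NK and NKT cell genes summed to 0 to 0.0982 CPM at 12 h and 0 to 0.288 CPM in WT. Monocyte and neutrophil genes summed to 1190 to 3530 CPM at 12 h and 961 to 3170 CPM in WT. Of these genes 5 of 9 were counted at 12 h and 6 of 9 in WT, with Ccr2 and S100a9 at 0 in both. Dendritic cell genes summed to 2.02 to 3.73 CPM at 12 h and 1.72 to 3.32 CPM in WT. The part of other cells in the hepatocyte values was not tested.

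Set side by side, HSC and LSEC differed in Cxcl9 and Cxcl11 in WT, at 12 h and at 36 h. Across all genes 54.3% were called between HSC and LSEC in WT, 53.5% at 12 h and 52.8% at 36 h, so a call between cell types was common. Genes called lower in HSC made up 25.5%, 23.9% and 25.4%. Cxcl9 was lower in HSC than in LSEC by a log2 fold change of -5.19 ± 0.75 in WT (adjusted p 4.52e-07), -3.32 ± 0.68 at 12 h (adjusted p 9.56e-05) and -3.84 ± 0.69 at 36 h (adjusted p 1.74e-05). Single libraries moved the sizes, to -4.61 at 12 h without HSC number 3, to -2.47 at 12 h without LSEC number 3 and to -4.67 at 36 h without HSC number 4. Cxcl11 was lower in HSC than in LSEC at each time, with 1, 15 and 8 counts over the HSC libraries of WT, 12 h and 36 h beside 51, 520 and 157 over the LSEC libraries (adjusted p 0.00226, 2.49e-05 and 0.00056). With so few counts in HSC its fitted fold changes depend on the prior count and are not given here. Those listed with the alternatives at the end have the same limit.

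Cxcl16 was lower in HSC than in LSEC in WT and at 36 h, and did not differ by the test at 12 h. HSC had 3.25-fold less than LSEC in WT (log2 fold change -1.70 ± 0.21, adjusted p 2.02e-08) and 2.52-fold less at 36 h (-1.33 ± 0.21, adjusted p 1.64e-06). At 12 h the difference was 0.08 ± 0.20 (adjusted p 0.767), with 296 to 483 CPM in HSC and 286 to 362 CPM in LSEC. The gain at 12 h was larger in HSC than in LSEC, a response difference of 1.78 ± 0.29 on the log2 scale (adjusted p 0.00043), where 0.822% of 14104 genes were called higher and 1.62% in either direction. That fit of 36 libraries did not pair HSC and LSEC libraries of the same number. With the number as a block the difference was 1.775 ± 0.307 (adjusted p 0.00278). The 229 genes called in either direction became 192 with the number as a block, 379 in a fit of HSC and LSEC at WT and 12 h alone, and 797 with the block and no hepatocyte libraries.

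For Cxcl10 the test between HSC and LSEC depended on the fit. In the fit of all 36 libraries without pairing HSC and LSEC did not differ by the test, at -0.71 ± 0.49 in WT (adjusted p 0.235), -0.16 ± 0.49 at 12 h (adjusted p 0.806) and -0.73 ± 0.49 at 36 h (adjusted p 0.217). HSC and LSEC libraries of the same group and number deviated together, with correlations of 0.14 to 0.44 in WT, 0.24 to 0.52 at 12 h and 0.17 to 0.29 at 36 h. With the number as a block over all 3 cell types Cxcl10 was still not called, at -0.70 ± 0.40 in WT (adjusted p 0.152) and -0.71 ± 0.40 at 36 h (adjusted p 0.146). With both the block and the hepatocyte libraries left out, a fit chosen after seeing the data, Cxcl10 was lower in HSC in WT (-0.81 ± 0.20, adjusted p 0.00237) and at 36 h (-0.76 ± 0.19, adjusted p 0.00343) and not called at 12 h (-0.03 ± 0.19, adjusted p 0.916). Without the block, a fit of the HSC and LSEC libraries of WT alone called WT (-0.71 ± 0.25, adjusted p 0.028), and that of 36 h alone did not call 36 h (-0.75 ± 0.45, adjusted p 0.17). In 4 of 4 pairs HSC was below LSEC in WT and in 4 of 4 at 36 h, while at 12 h HSC was above LSEC in 3 of 4. The difference between the Cxcl10 responses at 12 h was not called, at 0.54 ± 0.69 (adjusted p 0.874) in the fit of 36 libraries, 0.65 ± 0.57 (adjusted p 0.755) with the block added and 0.78 ± 0.27 (adjusted p 0.114) with the block and no hepatocyte libraries. For Cxcl9 the response difference at 12 h was 1.87 ± 0.90 (adjusted p 0.416) in the fit of 36 libraries and 1.72 ± 0.81 (adjusted p 0.407) with the block added. Of the alternatives run, it was called only with the block and no hepatocyte libraries, at 1.72 ± 0.47 (adjusted p 0.0495). In the fit of 36 libraries it was 0.58 (adjusted p 0.951) without HSC 12 h number 3 and 2.72 (adjusted p 0.149) without LSEC 12 h number 3.

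**Figure D4:**
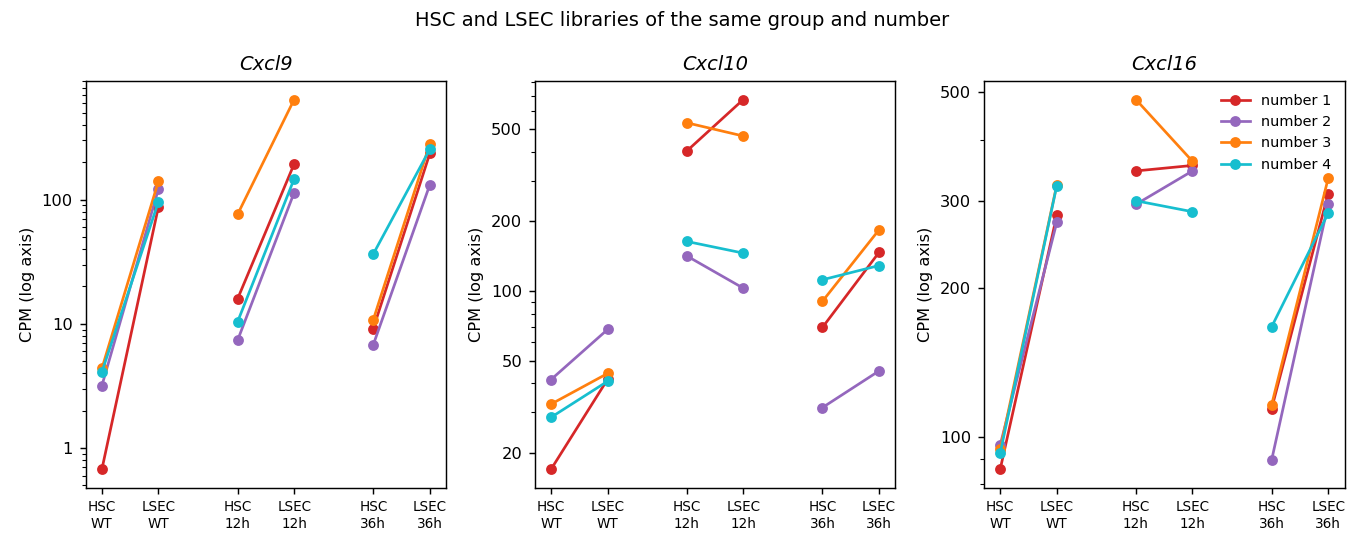
CPM on a log axis of Cxcl9, Cxcl10 and Cxcl16 in HSC and LSEC libraries of the same group and number, joined by a line. Cxcl9 is lower in HSC in every pair, Cxcl10 is lower in HSC in all 4 pairs of WT and of 36 h and higher in 3 of 4 at 12 h, and numbers 1 and 3 are the highest for Cxcl10 at 12 h in both cell types.

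Against hepatocytes, HSC and LSEC held far more Cxcl10 and Cxcl16. The sizes of the folds below depend on the scaling. TMM factors were 0.638 to 0.825 in hepatocytes, 1.08 to 1.18 in HSC and 1.2 to 1.33 in LSEC. Without that scaling, mean WT Cxcl16 was 376 CPM in LSEC and 1.06 CPM in hepatocytes, against 300 and 1.49 CPM with it. HSC exceeded hepatocytes 12.2-fold in WT and 106-fold at 12 h for Cxcl10 (adjusted p 1.1e-06 and 3.38e-11), and 61.8-fold and 173-fold for Cxcl16 (adjusted p 2.44e-19 and 4.2e-21), where 42.8% of genes were called higher in HSC in WT and 42.7% at 12 h. At 36 h the folds were 22.4 for Cxcl10 and 61.7 for Cxcl16 (adjusted p 2.77e-08 and 1.91e-19), where 42.9% were called higher. In either direction 76.9% of genes were called between HSC and hepatocytes in WT, 75.6% at 12 h and 77.2% at 36 h. LSEC exceeded hepatocytes 19.9-fold in WT and 118-fold at 12 h for Cxcl10 (adjusted p 6.34e-08 and 2.13e-11), where 41.6% and 41.4% of genes were called higher in LSEC. At 36 h the fold was 37.2 (adjusted p 2.14e-09), where 42.8% were called higher. For Cxcl16 LSEC exceeded hepatocytes 201-fold in WT, 163-fold at 12 h and 155-fold at 36 h (adjusted p 2.52e-21, 3.81e-21 and 4.73e-21). In either direction 76.6%, 76.5% and 78% of genes were called between LSEC and hepatocytes at those times. For Cxcl9 LSEC was 15-fold above hepatocytes in WT (adjusted p 8.78e-06) and 10.2-fold at 12 h (adjusted p 4.61e-05), the value at 12 h being 5.65-fold without LSEC number 3 and 19.4-fold without hepatocyte number 2, and 22.3-fold at 36 h (adjusted p 1.32e-06).

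HSC and hepatocytes did not differ by the test in Cxcl9, at -1.28 ± 0.68 in WT (adjusted p 0.0859), 0.03 ± 0.63 at 12 h (adjusted p 0.97) and 0.64 ± 0.64 at 36 h (adjusted p 0.366). Cxcl11 was lower in HSC than in hepatocytes in all 3 groups (adjusted p 0.00186, 0.0109 and 0.00133 in WT, at 12 h and at 36 h), where 34.1%, 32.9% and 34.4% of genes were called lower, but at 12 h the groups overlapped and the call was lost without hepatocyte number 1 (adjusted p 0.117). LSEC exceeded hepatocytes in Cxcl11 at 12 h by 2.27 ± 0.76 (adjusted p 0.00788), or 3.16 without hepatocyte number 1, and did not differ by the test in WT (adjusted p 1) or at 36 h (adjusted p 0.602). The HSC response at 12 h exceeded that of hepatocytes for Cxcl10, by 3.12 ± 0.77 (adjusted p 0.0103), and for Cxcl16, by 1.48 ± 0.33 (adjusted p 0.00469), where 5.03% of genes were called higher and 9.2% in either direction. For LSEC against hepatocytes the Cxcl10 response difference was 2.57 ± 0.77, which missed the threshold (adjusted p 0.0531), where 3.57% of genes were called. At 36 h no member had a response difference past the threshold. Over all genes 0% were called between HSC and LSEC responses in edgeR, with 567 at an unadjusted p under 0.05 and 13 in DESeq2, and 0.00709% (1 gene) against hepatocytes for HSC and for LSEC.

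With the merged exon lengths used here, the ratio of Cxcl9 to Cxcl10 per kb within a library was below 1 in HSC libraries. It was mostly above 1 in the others. A shorter length for Cxcl10, whose merged exons span its whole gene body, would lower every ratio. Whether LSEC and hepatocyte ratios exceed 1 may thus depend on that length, while comparisons between groups do not. In HSC the ratio was 0.0297 to 0.108 in WT, 0.0295 to 0.107 at 12 h and 0.0892 to 0.243 at 36 h, so Cxcl10 exceeded Cxcl9 in every HSC library. In LSEC it was 1.34 to 2.39 in WT, 0.215 to 1.02 at 12 h and 1.15 to 2.18 at 36 h, so the 12 h range lay below both others. In hepatocytes it was 1.61 to 4.07 in WT, 2.80 to 17.3 at 12 h and 1.56 to 2.94 at 36 h, on few counts of Cxcl10. Within HSC libraries the log2(CPM + 1) values of Cxcl10 and Cxcl16 had a Pearson r of 0.945 over 12 libraries, and within LSEC libraries those of Cxcl10 and Cxcl11 had an r of 0.913, which describes libraries that share their 3 groups.

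Receptors of these chemokines were scarce in all 3 cell types, while genes that bind or trim them moved. Cxcr3, the receptor of CXCL9, CXCL10 and CXCL11, had group means of 0 to 0.489 CPM, and Cxcr6, the receptor of CXCL16, 0.012 to 0.614 CPM. Ackr3, a scavenging receptor that takes up CXCL11 and CXCL12, rose to 13.2 ± 8.83 CPM in 12 h LSEC, against 2.61 ± 1.07 CPM in WT (log2 fold change 2.35 ± 0.59, adjusted p 0.0149), and to 4.41 ± 1.60 CPM in 12 h HSC, against 1.98 ± 0.428 CPM in WT (1.18 ± 0.37, adjusted p 0.0251). Ackr1, which binds many inflammatory chemokines, rose in LSEC at 12 h (0.97 ± 0.27, adjusted p 0.0245) and fell in HSC (-1.70 ± 0.27, adjusted p 0.00047). Dpp4, the peptidase that trims CXCR3 ligands, fell to 896 ± 129 CPM in 12 h LSEC, against 1530 ± 48.4 CPM in WT (-0.75 ± 0.13, adjusted p 0.00149). Its level in HSC was under 10 CPM in all groups, at 1.72 ± 0.517 CPM at 12 h and 2.53 ± 0.721 CPM in WT (adjusted p 0.287). Of the shedding proteases of CXCL16, Adam10 fell in HSC at 12 h (-0.51 ± 0.12, adjusted p 0.00524) and Adam17 rose (0.60 ± 0.17, adjusted p 0.0136), and neither was called in LSEC (adjusted p 0.0981 and 0.999).

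**Figure D5:**
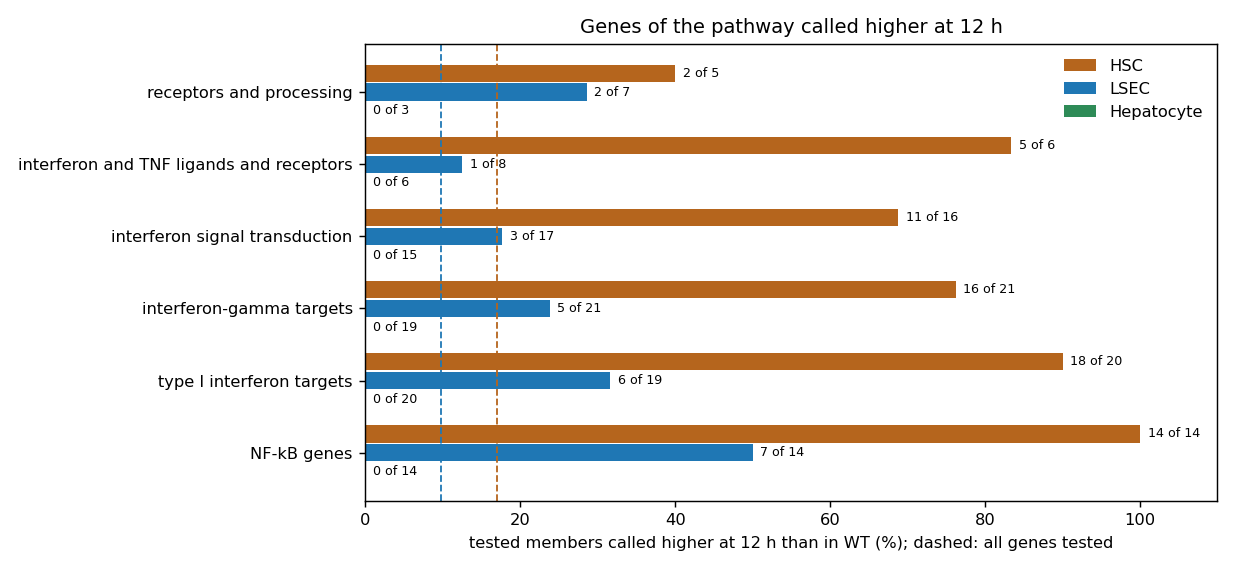
Share of the tested genes of each list that were called higher at 12 h than in WT in HSC, LSEC and hepatocytes (bars, with counts), with the share over all genes tested as dashed lines. In HSC 14 of 14 NF-kB genes and 18 of 20 type I interferon targets were called higher, in LSEC 7 of 14 and 6 of 19, and in hepatocytes none.

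The wider interferon and NF-kB genes were described from lists that leave out the members. In HSC at 12 h, over all genes tested, 17% were called higher and 15.1% lower, the shares beside which the counts below stand. Of 21 tested interferon-gamma targets 16 were called higher and none lower, with a median log2 fold change of 1.09 beside 0.01 over all genes. Among them H2-K1, a class I heavy chain, rose (0.41 ± 0.13, adjusted p 0.0294), as did Tapbp, which helps to load it (0.69 ± 0.18, adjusted p 0.00919), while H2-D1 (-0.03 ± 0.13, adjusted p 0.883) and B2m (-0.16 ± 0.11, adjusted p 0.294) did not pass. For type I interferon targets it was 18 of 20, with a median of 1.42, and Ifit3, an antiviral RNA-binding protein, stood at 748 ± 244 CPM in 12 h HSC and 270 ± 47.6 CPM in WT (adjusted p 0.00042). Bst2, which tethers budding virus (1.66 ± 0.42, adjusted p 0.0087), and the GTPase gene Ifi47 (1.55 ± 0.32, adjusted p 0.00255) rose too, while Rtp4 did not pass (0.20 ± 0.14, adjusted p 0.289). All 14 NF-kB genes were called higher in HSC, with a median of 1.41, among them Sod2, a mitochondrial dismutase (2.52 ± 0.21, adjusted p 1.39e-05), Icam1, an adhesion molecule for leukocytes (1.59 ± 0.23, adjusted p 0.000318), the inhibitor Nfkbia (0.75 ± 0.15, adjusted p 0.00205) and the NF-kB subunit Rela (0.40 ± 0.12, adjusted p 0.0218). Of the signal transduction genes 11 of 16 were called higher, among them Stat3 by 0.76 ± 0.15 (adjusted p 0.00181), Jak1 by 0.55 ± 0.19 (adjusted p 0.0407) and the feedback inhibitor Socs3 by 1.75 ± 0.53 (adjusted p 0.0231), with a median of 0.70. Of the interferon and TNF ligands and receptors 5 of 6 tested were called higher, with a median of 0.58, and Ifngr1, a chain of the interferon-gamma receptor, stood at 264 ± 29.9 CPM in 12 h HSC and 138 ± 6.13 CPM in WT (adjusted p 8.76e-05). The interferon receptor chain Ifnar2 rose by 0.56 ± 0.10 (adjusted p 0.00134) and the TNF receptor Tnfrsf1a by 0.58 ± 0.13 (adjusted p 0.00489), while Tnfrsf1b, which encodes another TNF receptor, did not pass (0.18 ± 0.13, adjusted p 0.344). Of the receptors and processing genes 2 were higher and 2 lower of 5, with a median of -0.51.

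In LSEC at 12 h the same lists were counted, and differences between the cell types in these counts were not tested. Over all genes tested in LSEC 9.74% were called higher and 8.5% lower, and the count of 1 of 8 below lies near that share. Interferon-gamma targets had 5 of 21 called higher, with a median of 0.54 beside -0.02 over all genes, type I interferon targets 6 of 19, with a median of 0.86, and signal transduction genes 3 of 17, with a median of 0.44. NF-kB genes had 7 of 14 called higher, with a median of 0.51, among them Icam1 (1.46 ± 0.28, adjusted p 0.00351). Ifit3 stood at 180 ± 146 CPM in 12 h LSEC and 82.5 ± 21.3 CPM in WT (adjusted p 0.0627). Of the ligands and receptors 1 of 8 was called higher, with a median of 0.16, and of the receptors and processing genes 2 were higher and 1 lower of 7, with a median of 0.00. In hepatocytes no gene of these lists was called at either time, where 0% of all genes tested were called. At 36 h 1 type I interferon target of 20 was called higher in HSC and none in LSEC, where 0.134% and 0% of all genes tested were. The medians of interferon-gamma targets at 36 h were 0.82 in HSC and 0.94 in LSEC, beside -0.01 and 0.00 over all genes. From 12 h to 36 h 12 of 14 NF-kB genes were called lower in HSC and 7 of 14 in LSEC, beside 2 lower and 2 higher of 21 interferon-gamma targets in HSC and 2 higher of 21 in LSEC. Over all genes tested, 15% were called lower and 12.9% higher in HSC between these times, and 10.8% and 10.6% in LSEC.

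The genes around the members changed in mixed ways at 12 h. Over all genes tested 17% were called higher and 15.1% lower in HSC, and 9.74% and 8.5% in LSEC. Of 7 tested neighbours of Cxcl9, Cxcl10 and Cxcl11 within HSC, Sdad1 rose (0.71 ± 0.20, adjusted p 0.014) and Art3 and Naaa fell, Naaa to 17.1 ± 3.56 CPM at 12 h, against 47.0 ± 1.96 CPM in WT (-1.44 ± 0.14, adjusted p 2.59e-05). Within LSEC the same 3 genes were called in the same directions. The more abundant neighbours G3bp2, Scarb2 and Uso1 were called in neither, and Sdad1, Naaa and Med11 are named after their values were seen. Around Cxcl16, 4 of 5 tested neighbours rose in HSC at 12 h, Zmynd15, Med11 (0.89 ± 0.20, adjusted p 0.0044), Psmb6 (0.67 ± 0.19, adjusted p 0.0145) and Pelp1 (0.54 ± 0.10, adjusted p 0.00155), and 1 of 5 in LSEC, Psmb6 (0.48 ± 0.14, adjusted p 0.0262).

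The genes whose pattern was most like that of a member were ranked by Pearson r of log2(CPM + 1) among the 12246 genes averaging 1 CPM or more. Over all 36 libraries, which share cell type and group, these were Osmr (r 0.995), Sp110 (0.992) and Arhgef2 (0.992) for Cxcl16, Adamts4 (0.962), Serpina3f (0.962) and Tnip1 (0.96) for Cxcl10, and Aaas (0.925), Tnfrsf23 (0.915) and Ybx1 (0.913) for Cxcl9. Within the 12 LSEC libraries the closest to Cxcl9 were Ifit3b (0.963), Ifit3 (0.96) and Zbp1 (0.958), and the closest to Cxcl10 were Mx2 (0.944), Abtb2 (0.939) and Ak4 (0.925). Within the 12 HSC libraries Nod1 (0.992), Ddx39 (0.99) and Sdc4 (0.989) were closest to Cxcl16. Cxcl11, with a mean under 1 CPM, was not ranked.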

How the data were processed

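RNA was sequenced from HSC, LSEC and hepatocytes in 36 libraries, 4 per group. The deposited files hold raw read counts per gene, and per the submitters' processing notes the authors used FastQC 0.11.4, Trimmomatic 0.35, TopHat2 2.1.0 on mm10 and SAMtools 0.1.18. How reads were counted (tool, annotation, strand) was not given in the sources used here. Reads in no gene (4.9 to 9.02% of the total) and ambiguous reads (0.887 to 1.51%) stayed out of library sizes and tests. No 2 of the 54 library pairs within a group were identical.

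Tests on the counts used the quasi-likelihood functions glmQLFit and glmQLFTest of edgeR 4.0.16 under R 4.3.3 (TMM scaling, filterByExpr with a minimum count of 10 and a total of 15) and Benjamini-Hochberg adjustment over all genes tested. Responses came from 1 fit per cell type of 12 libraries, and comparisons of cell types and of responses from 1 fit of 36 libraries. The SE is the absolute log2 fold change divided by the square root of F. CPM set across cell types use 1 TMM scaling over all libraries. HSC and LSEC libraries of the same group and number correlated above 0.1 in 4 of 4 pairs in WT, at 12 h and at 36 h. The LSEC library of the same number was the best match for 2 of 4 HSC libraries in WT and for 4 of 4 at 12 h and at 36 h. They were treated as pairs only in the fits with the number as a block and where pairs are counted or drawn. The fit of 36 libraries without the block ignored this pairing. WT and 36 h libraries of the same number also correlated above 0.1 in 4 of 4 pairs in HSC (0.14 to 0.29) and in hepatocytes (0.49 to 0.63). The alternatives were RLE scaling, no filter, DESeq2 1.42.0, fits of fewer or more groups, the replicate number as a block, the Malat1 split and leaving out each library. The tests were tried on simulated data. The named genes are the 4 members, the receptors and processing genes, up to 4 genes per list by mean level, the overlapping and neighbouring genes and the 3 genes most like each member. One gene of the lists is not reported here by name. The members and lists were chosen with earlier results of these data known.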

Additional observations from a re-analysis of the deposited data

Results flagged for a closer look

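Each of the 4 genes in each of the 9 groups gave 36 sets of 4 libraries. In 7 sets 1 library lay far from the other 3, by Dixon's test on CPM of its gap to the nearest library. For independent, normally spread values chance gives about 1 set in 20. The sets share libraries and CPM were not put on a log scale, so 7 cannot be weighed against that rate. For Cxcl9 these were HSC 12 h number 3 at 76.2 CPM, HSC 36 h number 4 at 36.5 CPM, LSEC 12 h number 3 at 641 CPM and hepatocyte 12 h number 2 at 65.1 CPM, each the highest of its group. LSEC WT number 2 was the highest of its group for Cxcl10, at 68.3 CPM. For Cxcl11 HSC WT number 1 stood at 0.0293 CPM, which is its only count in that group, and hepatocyte WT number 2 at 0.529 CPM. With only that count in HSC WT, the test there had no other possible outcome.

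Of 24 differences between the responses of 2 cell types, 3 passed the test, where 0% to 9.2% of all genes were called, depending on the comparison. Cxcl16 responded more in HSC than in LSEC at 12 h, by 1.78 on the log2 scale, and more in HSC than in hepatocytes, by 1.48. Cxcl10 responded more in HSC than in hepatocytes at 12 h, by 3.12.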

How the results depend on the processing

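Of 93 tests of the 4 genes, 37 were called. Over all genes tested, 52.8% to 78% were called in either direction between cell types. Between times within a cell type it was 0% to 32%, and between responses 0% to 9.2%. Of the 37, 36 kept their call and direction under every alternative in which they could be tested, and none changed sign. Some Cxcl11 results could not be tested in every alternative. The exception was Cxcl11 between HSC and hepatocytes at 12 h, whose log2 fold change was -1.69 without hepatocyte 12 h number 1 and -4.03 without HSC 12 h number 3. Of the 56 uncalled results 19 changed sign and 9 were called under some alternative. The cause of these changes was not tested.

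DESeq2 called Cxcl11 in LSEC at 36 h over 12 h (-1.72), Cxcl9 in hepatocytes at 12 h over WT (1.80) and the Cxcl10 response of LSEC minus hepatocytes at 12 h (2.56). It put Cxcl9 of HSC over hepatocytes at 12 h at -0.0021 and the Cxcl16 response of HSC minus hepatocytes at 36 h at 0.010. RLE scaling gave -0.0020 and 0.016 for the same pair of results. With all 36 libraries in the fit Cxcl10 in LSEC at 36 h over 12 h was called (-1.46). With the Malat1 split as a term, hepatocyte Cxcl10 and Cxcl11 at 36 h over 12 h were -0.10 and -0.14. Without a filter Cxcl11 of LSEC over hepatocytes in WT was 0.0024. In fits of 2 cell types Cxcl10 of HSC over LSEC in WT (-0.71) and Cxcl9 of HSC over hepatocytes in WT (-1.25) were called, Cxcl16 of HSC over LSEC at 12 h was -0.0014, and the Cxcl16 response of HSC minus hepatocytes at 36 h was 0.024.

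With the replicate number as a block over the 3 cell types Cxcl9 of HSC over hepatocytes in WT was called (-1.38) and at 12 h was -0.43, the Cxcl11 response of HSC minus LSEC at 12 h was -0.17 and the Cxcl16 response of HSC minus hepatocytes at 36 h was 0.013. With the block and no hepatocyte libraries Cxcl10 of HSC over LSEC was called in WT (-0.81) and at 36 h (-0.76), as was the Cxcl9 response of HSC minus LSEC at 12 h (1.72). There the Cxcl11 response difference at 12 h was -0.14 and that of Cxcl10 at 36 h was 0.046. Of all genes, 797 had a called response difference of HSC minus LSEC at 12 h in that fit, against 229 in the fit of 36 libraries, 192 with the block alone added and 379 in HSC and LSEC at WT and 12 h without the block. The block changed no other call of the 4 genes. Over all genes it gave 10 calls in HSC at 36 h over WT, against 18 without it, 5 in LSEC, against 0, and 5 in hepatocytes, against 0.

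Leaving out 1 library at a time gave these ranges of log2 values. In HSC, Cxcl9 at 36 h over WT ranged over 1.53 to 2.62 and at 36 h over 12 h over -1.65 to 0.48. In LSEC, Cxcl9 at 12 h over WT ranged over 0.46 to 1.56, Cxcl16 at 36 h over WT over -0.027 to 0.059, and at 36 h over 12 h Cxcl9 over -0.55 to 0.55, Cxcl10 over -1.79 to -0.94 and Cxcl11 over -2.18 to -1.29. In hepatocytes, Cxcl10 at 12 h over WT ranged over -0.042 to 0.50, and at 36 h over 12 h Cxcl11 over -0.32 to 1.06 and Cxcl16 over -0.42 to 0.16. For HSC over hepatocytes, Cxcl9 ranged over -1.49 to -0.94 in WT, -1.26 to 0.96 at 12 h and -0.19 to 0.89 at 36 h. For HSC over LSEC at 12 h, Cxcl10 ranged over -0.55 to 0.38 and Cxcl16 over -0.10 to 0.16. For LSEC over hepatocytes, Cxcl11 ranged over -0.31 to 0.24 in WT and -0.028 to 0.92 at 36 h. For the response of HSC minus LSEC, Cxcl9 ranged over 0.58 to 2.72 at 12 h, Cxcl11 ranged over -1.35 to 1.56 at 12 h and -0.036 to 2.35 at 36 h, and Cxcl10 over -0.31 to 0.23 at 36 h. For LSEC minus hepatocytes, Cxcl9 ranged over -1.41 to 0.37 and Cxcl10 over 2.03 to 2.87 at 12 h, and Cxcl11 over -0.028 to 0.92 at 36 h. For HSC minus hepatocytes at 36 h, Cxcl16 ranged over -0.22 to 0.34.

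Depth limits Cxcl11 most, with 0 to 11 counts in any HSC library, so the fold changes of Cxcl11 given above that involve HSC depend on the prior count. With 4 libraries a group, single libraries moved several called sizes of Cxcl9 and of Cxcl11 by over 1.5 times.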
